A study of Rattus norvegicus with 6 samples.

Results

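The mature miRNAs miR-122-5p, miR-194-5p and miR-192-5p are known for their abundance in liver and gut, and all 3 were followed here in exosomes released by rat mesenchymal stem cells (MSCs). They were taken by exact name from a table of 763 rat miRNAs, and all 3 were found there. The comparison was between 3 exosome libraries from untreated wild-type MSCs (labelled RBMSC) and 3 from the same kind of cell pretreated with 200 µM nicorandil for 24 h. Nicorandil, used against angina, acts both as a nitric oxide donor and as an opener of potassium channels gated by ATP. Exosomes, small vesicles that cells release, had been collected from culture supernatant with an isolation reagent, and their small RNA was sequenced. Nothing in the labels tells whether libraries within a group are from separate cultures, so the p-values measure the spread of these samples alone, and that spread may be technical. They also do not describe the serum in the culture medium.

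MicroRNAs are short RNAs that guide silencing proteins to messenger RNAs, mainly through pairing of the seed near their 5′ end. miR-122-5p is the dominant miRNA of hepatocytes, where it acts on cholesterol and lipid metabolism, and its level in blood is used as a marker of liver injury. miR-194-5p and miR-192-5p are enriched in liver, gut epithelium and kidney, are made from shared primary transcripts and are known as targets of p53 and of hepatocyte nuclear factors. MSCs, by contrast, are known for others such as miR-143-3p and miR-21-5p.

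The mature sequences, from RefSeq (GRCr8), are shown because they decide which reads can be told apart. Each is written 5′ to 3′ with the seed, bases 2 to 8, in capitals. miR-215, the one other miRNA of that table with the seed of miR-192-5p, stands beside it.
miR-122-5p: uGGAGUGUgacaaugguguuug
miR-192-5p: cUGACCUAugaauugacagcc
miR-215: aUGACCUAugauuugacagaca
miR-194-5p: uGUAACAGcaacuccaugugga
The seeds of the 3 miRNAs all differ, and any pair of the 3 matched at no more than 7 aligned bases. miR-192-5p and miR-215 matched at 18 of 21 aligned bases. miR-215 is not analysed here, and the sources used here do not tell how reads of such close relatives were assigned. miR-194-5p is made from 2 genes with the same mature sequence, so its reads cannot be assigned to either.

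The genes lie in 3 places. Mir122 lies on the plus strand at chr18:61028817-61028901, overlapping a transcribed pseudogene of the annotation and, on the minus strand, the hairpin Mir3591. Mir194-2 (chr1:212994024-212994108) and Mir192 (chr1:212994209-212994318) lie on the plus strand of chromosome 1, 100 bases apart and outside any other annotated gene. Mir194-1 (chr13:99382716-99382798) and Mir215 (chr13:99382990-99383086) lie on the plus strand of chromosome 13, 191 bases apart and within Iars2, which encodes a mitochondrial isoleucyl-tRNA synthetase.

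Depth was low in all libraries and lowest in the untreated ones, which held 2212 to 2338 miRNA reads each. The nicorandil libraries held 8426 to 16628, a 6.11-fold difference between the group totals in the same direction as the treatment. Reads here are whole reads recovered from the deposited values, which are themselves normalized reads, that is, reads mapped to 1 common library size. That mapping was made group by group, so a value depends in part on the other libraries of its group. For example, miR-200a-3p had 0 reads but a value of 0.454 in untreated replicate 1, against 0.349 for 1 read in nicorandil replicate 1. Reads of untreated replicates 1 and 2 did not detectably differ beyond sampling noise at this depth (chi-square p = 0.548). The same chi-square test found no detectable difference between the untreated libraries 1 and 3 (p = 0.16), whereas libraries 2 and 3 differed (p = 0.0121). With pairs that do not divide cleanly, the 3 were kept as separate samples, and values with replicates 1 and 2 averaged as 1 sample are given beside the calls that this ends. Each pair of nicorandil libraries differed beyond sampling noise, with a highest p of 2.11e-13.

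All 3 miRNAs fell in exosomes of nicorandil-treated MSCs, and in none of the 3 did the normalized reads of the groups overlap. miR-122-5p fell to about 23.5 normalized reads from 69.8, miR-192-5p to 9.29 from 21.4 and miR-194-5p to 0.682 from 6.22. Over all 121 miRNAs tested, 21.5% were called in either direction and 7.44% were called lower (limma, Benjamini-Hochberg adjusted p under 0.05). Groups without overlap were seen for 28.1% of the tested miRNAs, and for 10.7% with the nicorandil group lower. Since a normalized value draws on its own group, this lack of overlap and the limma p-values are not free of the group labels. The median log2 fold change of the 3 was -1.49, against 0.23 over all tested. All these values are relative to the other miRNAs of a library. In these bulk libraries fewer vesicles that carry a miRNA, less of it per vesicle and more of other miRNAs cannot be told apart.

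**Figure D1:**
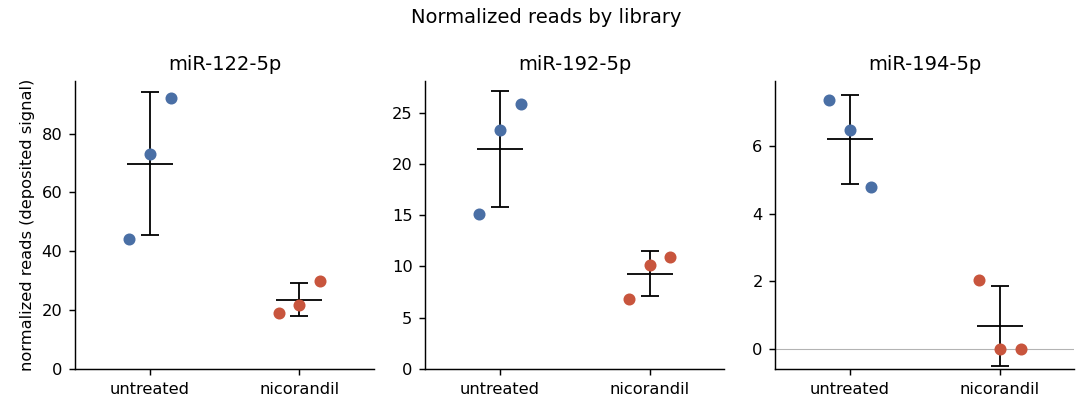
Normalized reads (deposited signal, vertical axis) of the 3 miRNAs in each library, with the 3 untreated and the 3 nicorandil libraries side by side; bars are the mean and SD of 3 libraries. Every untreated point lies above every nicorandil point, and miR-194-5p is at 0 in 2 nicorandil libraries.

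miR-122-5p, the hepatocyte miRNA, was the most abundant of the 3. It stood at 44.0, 73.1 and 92.2 normalized reads in untreated replicates 1, 2 and 3 and at 18.9, 21.9 and 29.8 in the nicorandil replicates. The lowest untreated library was thus above the highest nicorandil library, while the untreated libraries were themselves widely spread. The means were 69.8 ± 24.3 and 23.5 ± 5.61 (SD, n = 3), a difference of -1.49 on the log2(value + 1) scale (SE 0.27, 95% interval -2.05 to -0.93, limma adjusted p = 0.000718). The call held in all 21 other settings that were run, including each fit with a library left out, where the adjusted p reached at most 0.035. With TMM-scaled reads, which use no group means, the difference was -1.45 (limma adjusted p = 0.00857).

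In reads, miR-122-5p had 21, 34 and 46 before any scaling in untreated libraries, against 53, 56 and 38 after nicorandil. Its read numbers therefore overlapped between the groups, and it was the share of each library that separated them. Of all miRNA reads it took 0.944%, 1.54% and 1.97% in untreated libraries and 0.319%, 0.343% and 0.451% in nicorandil libraries. The 95% Wilson interval of the lowest untreated share ran from 0.618% to 1.44% and that of the highest nicorandil share from 0.329% to 0.618%. These intervals, like the other counting intervals and limits given here, cover counting error only and treat reads as independent. The reads were amplified by PCR and carry no molecular identifiers, so the intervals may be too narrow. Among the miRNAs of a library ranked by reads, miR-122-5p was at place 20, 13 and 11 in untreated libraries and at 40, 37 and 32 in nicorandil libraries.

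The spread of miR-122-5p among the untreated libraries was larger than counting error gives before adjustment (exact multinomial test of its reads against the library totals, p = 0.0161, or 0.0966 adjusted over 6 such tests). Among the nicorandil libraries no such excess was detectable (exact multinomial p = 0.238). With the reads of each group pooled, its share was 4.20-fold higher in untreated than in nicorandil exosomes (exact conditional 95% interval 3.22 to 5.44). At the pooled untreated share the nicorandil libraries would have held 617 reads of it, against the 147 found. The authors' deposited table gives it a log2 fold change of -1.57 and the sixth lowest of its p-values.

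**Figure D2:**
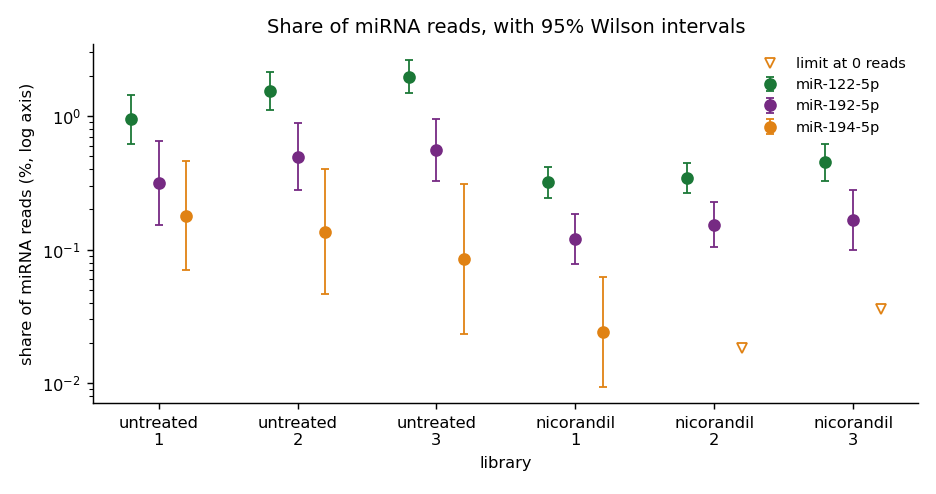
Share of all miRNA reads (percent, log axis) of the 3 miRNAs in each of the 6 libraries, with 95% Wilson intervals; open triangles mark the limit that 0 reads allows. The order miR-122-5p, miR-192-5p, miR-194-5p was the same in each library, while the intervals of miR-194-5p are wide.

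miR-192-5p is the miRNA enriched in liver and gut that shares a gene cluster with miR-194-5p. On the log2(value + 1) scale it showed the least negative difference of the 3. It stood at 15.1, 23.3 and 25.9 normalized reads without the drug and at 6.78, 10.1 and 10.9 with it. The libraries of the 2 groups did not overlap, and the lowest untreated library was again replicate 1. The means were 21.4 ± 5.65 and 9.29 ± 2.21 (SD, n = 3), a difference of -1.11 on the log2(value + 1) scale (SE 0.34, 95% interval -1.83 to -0.39, limma adjusted p = 0.0252).

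It rested on 7, 11 and 13 reads from untreated exosomes and on 20, 25 and 14 reads after nicorandil. Its share of the miRNA reads was 0.315%, 0.497% and 0.556% and then 0.12%, 0.153% and 0.166%. The Wilson interval of the lowest untreated share, 0.153% to 0.648%, overlapped those of the 3 nicorandil shares. Overlap of intervals is not a test, and single libraries were not tested against each other for this miRNA. Pooled over the libraries the share was 3.21-fold higher in untreated exosomes (exact conditional 95% interval 2.01 to 5.04). The spread within each group was not detectable beyond counting error (exact multinomial p = 0.429 and 0.559). The call of miR-192-5p was lost when untreated replicate 2, untreated replicate 3, nicorandil replicate 1 or nicorandil replicate 2 was left out, at log2 fold changes of -1.04, -0.97, -0.93 and -1.18 (limma adjusted p = 0.0844, 0.13, 0.0938 and 0.0848). It was also lost with upper-quartile scaling and with TMM-scaled reads (limma adjusted p = 0.0933 and 0.0612).

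miR-194-5p was the rarest. It had 4, 3 and 2 reads in the untreated libraries and 4, 0 and 0 in the nicorandil libraries, so its nicorandil reads all came from replicate 1. The normalized reads were 7.38, 6.49 and 4.78 against 2.05, 0 and 0. The groups did not overlap, but each value stands on 4 reads or fewer. The means were 6.22 ± 1.32 and 0.682 ± 1.18 (SD, n = 3), a difference of -2.30 on the log2(value + 1) scale (SE 0.66, 95% interval -3.70 to -0.90, limma adjusted p = 0.0188). It passed the filter of a mean of at least 1 only through the untreated group, so this call is not free of the filter. A read counts as 1.93 to 2.17 normalized reads in an untreated library and as 0.375 to 0.771 in a nicorandil library.

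The untreated shares of miR-194-5p were 0.18%, 0.136% and 0.0855%, and that of nicorandil replicate 1 was 0.0241% (Wilson interval 0.00936% to 0.0618%). The 0 reads of nicorandil replicates 2 and 3 allow shares of up to 0.0184% and 0.0356% (3 reads of the total), which lie below each untreated share but within the Wilson interval of untreated replicate 3, 0.0235% to 0.311%, in the case of replicate 3. Pooled, the share was 13.7-fold higher in untreated exosomes, with an exact conditional 95% interval of 3.84 to 61.1. The call was lost with the quasi-likelihood fit of edgeR (adjusted p = 0.0688), with untreated replicates 1 and 2 averaged as 1 sample (limma adjusted p = 0.0581), and on leaving out untreated replicate 1, untreated replicate 2, nicorandil replicate 2 or nicorandil replicate 3 (limma adjusted p = 0.0647, 0.069, 0.0955 and 0.0749). The size of the change also depended on the pseudocount, from -4.48 with 0.1 to -0.60 with 10. With 10, miR-192-5p was at -0.69, so miR-194-5p was then the less negative.

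The share of each of the 3 was also tested. A share is reads divided by the library total, so all shares here, marker lists included, are scaled by library totals. In the limma fits that scale made each fall larger than reported. The log2 fold change went from -1.49 to -1.9 for miR-122-5p, from -1.11 to -1.5 for miR-192-5p and from -2.30 to -2.6 for miR-194-5p. The shares are therefore not free of the choice of scale. The difference in the mean share, nicorandil minus untreated, was -1.11 percentage points for miR-122-5p, -0.309 for miR-192-5p and -0.126 for miR-194-5p. With 3 libraries a group, 0.1 is the lowest p possible, and each two-sided exact permutation test gave it (0.15 when adjusted over the 6 tests of shares and ratios). The shares were lower in 3 of 3 nicorandil libraries for all 3 miRNAs.

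**Figure D3:**
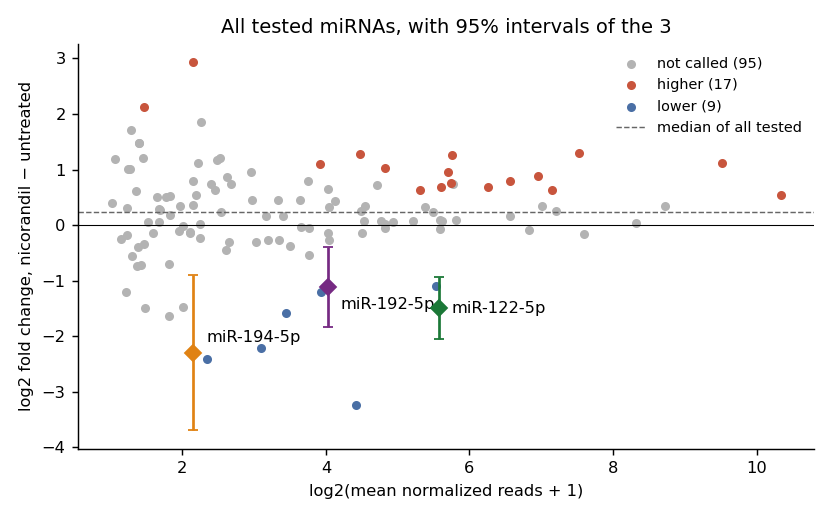
Log2 fold change (vertical axis, nicorandil minus untreated) against log2 of the mean normalized reads plus 1 for the 121 tested miRNAs; diamonds are the 3 miRNAs with 95% intervals and the dashed line is the median of 0.23. The 3 are among the 9 called lower, at -1.49, -1.11 and -2.30.

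The other arms of these hairpins were all but absent. miR-122-3p and miR-192-3p had 0 reads in all 6 libraries. miR-194-3p had 2 reads, both in nicorandil replicate 1, the library that also held all nicorandil reads of miR-194-5p. In an untreated library 0 reads allow an arm a share of up to 0.128% to 0.136%, so a minor arm could go unseen there. Of 9 liver and gut markers listed for this comparison, 7 were in the table, and miR-802-5p, a miRNA of liver and pancreas, had no read either.

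Within the 3, the part that was miR-122-5p overlapped between the groups. It took 65.6%, 70.8% and 75.4% of their joint reads in untreated and 68.8%, 69.1% and 73.1% in nicorandil libraries. The exact binomial intervals were as wide as 46.8% to 81.4% in untreated replicate 1, which held 32 such reads. Pooled, miR-192-5p made up 21.99% and 28.1% of the joint reads and miR-194-5p 6.38% and 1.90%, in untreated and nicorandil exosomes.

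How far the members differed from each other was tested on their ratios within a library. The log2 ratio of miR-122-5p to miR-192-5p was 1.63 ± 0.15 in the untreated group and 1.25 ± 0.19 in the nicorandil group (SD, n = 3), without overlap. This difference of -0.38 stayed between -0.45 and -0.27 with any 1 library left out, and it reached the lowest possible p of 0.1 in the two-sided exact permutation test (0.15 adjusted). The log2 ratio of miR-122-5p to miR-194-5p differed by 0.81 (exact permutation p = 0.4) and that of miR-192-5p to miR-194-5p by 1.18 (exact permutation p = 0.3), both with overlapping groups. With 0.1 as the lowest p possible, these tests could not pass the threshold, and they say nothing of whether the 3 moved alike.

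Likeness of pattern was measured as the root-mean-square difference of centred log2(value + 1) over the 6 libraries, among the 121 tested miRNAs. miR-122-5p and miR-192-5p were each other's nearest, at 0.234, where the median over the other 120 was 1.05 for miR-122-5p and 0.915 for miR-192-5p. Next to miR-122-5p came miR-486, abundant in red blood cells, at 0.461, and miR-26b-5p at 0.462. Next to miR-192-5p came miR-224-5p at 0.365 and miR-30c-5p at 0.411. miR-194-5p was nearest to miR-132-3p, at 0.581, then miR-26b-5p at 0.607 and let-7f-5p at 0.647. Its cluster neighbour miR-192-5p was only at place 11 for it, at 1.01, where the median for miR-194-5p was 1.47. Seen from miR-192-5p, miR-194-5p was at place 74, beyond the median of 0.915. From miR-122-5p it was at place 35, at 0.918. These values describe 6 libraries that share a depth difference between the groups, and miR-132-3p and miR-26b-5p had 3 and 7 untreated reads.

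Some markers of other cell types were lower in the same nicorandil libraries. Over all 121 tested miRNAs 7.44% were called lower, and each list below has few tested members. Endothelial markers took 0.181% to 0.36% of the miRNA reads in untreated and 0.0301% to 0.0356% in nicorandil libraries. Of 2 listed, miR-126a-3p, the endothelial miRNA, fell (log2 fold change -2.21, limma adjusted p = 0.00316) and miR-126a-5p had no read. Epithelial markers took 0.181% to 0.385% and 0.0237% to 0.0301%. Of 2 tested among 7, miR-200b-3p fell (-2.41, limma adjusted p = 0.0086), while miR-200a-3p at -1.49 was not called (limma adjusted p = 0.203). Like miR-194-5p, both passed the filter only through their untreated means (7.55 and 3.31, against 0.601 and 0.243 with nicorandil). The endothelial and epithelial lists rest on 19 and 20 untreated reads. Blood cell markers took 0.678% to 0.854% and 0.263% to 0.415%, with miR-486 lower (-1.20, limma adjusted p = 0.0238) among 3 tested of 8, while miR-451-5p of red blood cells was at -0.27 and miR-142-5p of leukocytes at 0.36, neither called.

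**Figure D4:**
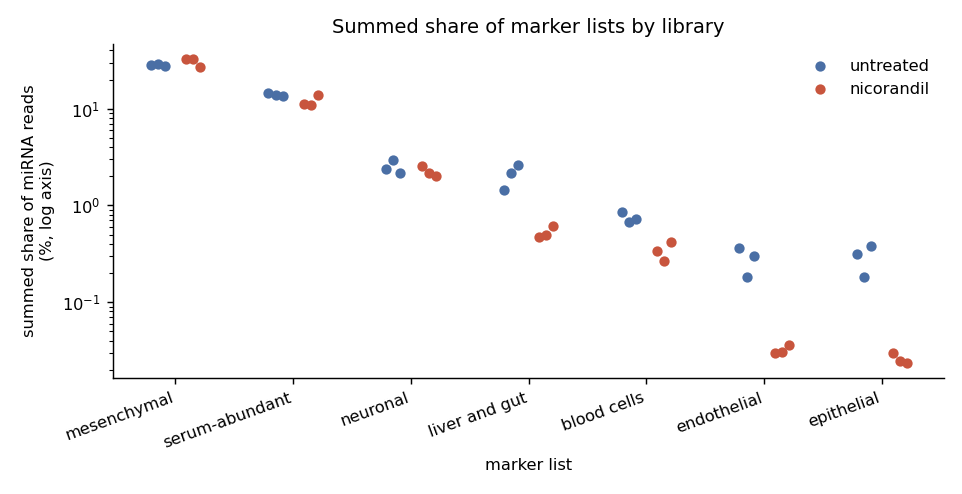
Summed share of all miRNA reads (percent, log axis) of 7 marker lists in the 3 untreated and 3 nicorandil libraries. The groups do not overlap for the liver and gut, blood cell, endothelial and epithelial lists, and they overlap for the neuronal list and, through nicorandil replicate 3, for the mesenchymal and serum-abundant lists. The liver and gut list is nearly all reads of the 3 miRNAs.

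The liver and gut list as a whole took 1.44% to 2.61% in untreated and 0.475% to 0.617% in nicorandil libraries. These shares are those of the 3 miRNAs again, since the other listed members had 0 untreated and 2 nicorandil reads. The mesenchymal list, which describes the labelled cell type, took 27.8% to 28.9% and 26.8% to 32.5%. miR-143-3p alone held 1527 of its 1924 untreated and 10227 of its 12958 nicorandil reads. Each of the 12 members had a read, though miR-31a-5p had only 1, in nicorandil replicate 2. Of 11 tested members 4 were higher, namely miR-100-5p, miR-145-5p (with 0 untreated reads), miR-143-3p and miR-21-5p. The filter was passed by miR-145-5p only through its nicorandil mean of 6.89, so that call is not free of the filter. Its 0 reads in the shallower untreated libraries do not show absence. Over all tested miRNAs 14% were called higher (17 of 121), and with library totals as the scale 4 of 119 were. A list of 12 miRNAs abundant in adult serum or plasma took 13.5% to 14.5% and 11.0% to 13.8%. In it miR-423-5p held 543 of 946 untreated and 2974 of 4840 nicorandil reads. The overlap of these 2 lists between the groups came from nicorandil replicate 3. Without it the mean share in nicorandil minus untreated exosomes went from 2.16 to 4.06 percentage points for the mesenchymal list and from -1.93 to -2.82 for the serum list. The mesenchymal difference was 1.25 without nicorandil replicate 1 and 1.18 without nicorandil replicate 2. Of the 10 tested members of the serum list miR-486 and miR-126a-3p were lower, none was higher, and the median log2 fold change was 0.20, near the 0.23 of all tested. The neuronal list took 2.14% to 2.98% and 2.01% to 2.56%, nearly all of it miR-128-3p, which was not called. Muscle markers had 0 untreated and 3 nicorandil reads and pancreatic markers 1 and 2. The part of other cell types, of serum in the medium and of the depth difference in the fall of the 3 miRNAs was not tested.

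**Figure D5:**
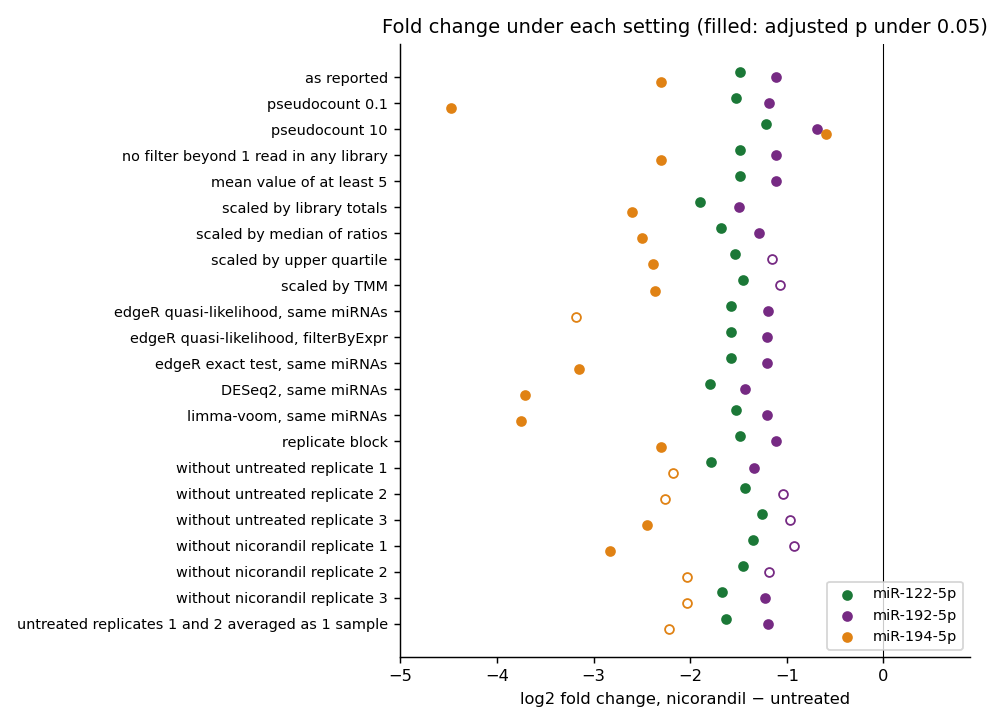
Log2 fold change (horizontal axis, nicorandil minus untreated) of the 3 miRNAs as reported and under 21 other settings; filled points have an adjusted p under 0.05 and open points do not, and a missing point was not tested. miR-122-5p lies between -1.90 and -1.22 and is filled throughout, while miR-192-5p and miR-194-5p each have 6 open points.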

How the data were processed

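Small RNA of exosomes was sequenced single-end, and FastQC, Bowtie and edgeR were used, per the submitters' processing notes; neither versions nor build or annotation are given there. The authors deposited a normalized read signal per library, with their own log2 fold change and raw p-value for each miRNA. The signal has the form of edgeR pseudo-counts with a dispersion of 0.0272. Inverting that formula (edgeR 4.0.16) gave whole reads for 100% of the values within 1e-05.

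limma 3.58.1 with an intensity trend (R 4.3.3) was fitted to log2(value + 1), keeping the 121 miRNAs whose mean was at least 1. Such fold changes understate those of rare miRNAs. p-values were Benjamini-Hochberg adjusted over all 121, with a threshold of 0.05. The fit was tested on simulated data. Shares and ratios had two-sided exact permutation tests (scipy 1.17.1). Alternatives were other scalings, filters, pseudocounts, DESeq2 1.42.0, other edgeR tests, limma-voom, the replicate block and each library left out.

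The 3 miRNAs, marker lists and tests were chosen with earlier results of these data known. Named were the 3, their other arms, called markers (up to 4 a list), miR-143-3p and, for each of the 3, the 3 most alike. Others were named after their values were seen. Of the 763 names, 686 matched RefSeq.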

Additional observations from a re-analysis of the deposited data

How the results depend on the processing

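The direction of all 3 miRNAs held in each setting that tested them (21 for miR-122-5p and miR-192-5p, 19 for miR-194-5p, which a mean of at least 5 and filterByExpr removed). miR-192-5p lost its call with upper-quartile scaling (-1.15) and with TMM-scaled reads (-1.07), and miR-194-5p in the quasi-likelihood test (-3.18) and with untreated replicates 1 and 2 averaged (-2.22), a setting chosen after seeing the data. The cause was not tested. Leaving out 1 library gave -1.79 to -1.26 for miR-122-5p, -1.34 to -0.93 for miR-192-5p and -2.83 to -2.03 for miR-194-5p, with 6, 2 and 2 of the 6 fits called. Among all tested miRNAs, 17 were higher and 9 lower as reported. The number higher was 4 with library totals, 7 with median of ratios, 6 with upper quartile, 5 with DESeq2 and 9 with limma-voom. It was 6 to 15 with a library left out, when 5 to 9 were lower. Library totals moved the median of all tested from 0.23 to -0.12 on the log2 scale, and miR-122-5p to -1.90, with 4 higher and 11 lower.

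No pairing by replicate number was seen: deviations of same-numbered libraries correlated at 0.01, 0.04 and -0.03 over 121 miRNAs. At the low depth of the untreated libraries such deviations are largely counting noise, so they cannot decide whether samples were paired. With the replicate block the log2 fold changes were -1.49, -1.11 and -2.30 (limma adjusted p = 0.00011, 0.00908 and 0.0226), and 17 miRNAs were higher and 9 lower. Depth limits miR-194-5p most, with 13 reads in all 6 libraries.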
